A study of Homo sapiens with 6 samples.

Results

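The enzymes of the mitochondrial respiratory chain and the ATP synthase are built from proteins of 2 genomes, and this report describes the nuclear genes among them in HEK 293T cells. Genes were chosen by name from the deposited count table. A member had the biotype protein coding and a symbol of the families NDUFA, NDUFB, NDUFC, NDUFS and NDUFV (complex I), SDHA to SDHD (complex II), UQC and CYC1 (complex III), COX4 to COX8 (complex IV), or ATP5F, ATP5M and ATP5P with ATP5IF1 (complex V). The rule gave 87 of the 30270 genes in the table, namely 37 of complex I, 4 of complex II, 13 of complex III, 14 of complex IV and 19 of complex V. The rule uses names and biotype alone. NDUFA4 was counted with complex IV, whose subunit it is despite its name. COX4I2, COX6A2, COX7B2 and COX8C were not analysed here.

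HEK 293T is an immortalised human embryonic kidney line, whose total RNA was depleted of rRNA and sequenced. By their labels 3 libraries were wild type (WT) and 3 came from cells with TENT3A and TENT3B knocked out (ΔTUT4/7), each named as a biological replicate and with no treatment. TENT3A and TENT3B are other names for TUT4 and TUT7, enzymes that add uridines to the 3′ ends of RNA. The knockout was 1 previously made line, so the line and the deletion cannot be told apart. The question put to these libraries here was how the nuclear genes of each complex differed between the groups.

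Complexes I, III and IV pass electrons from NADH to oxygen and pump protons out of the mitochondrial matrix, complex II feeds in electrons from succinate, and complex V, the ATP synthase, lets protons flow back and makes ATP. Complexes I, III, IV and V also hold subunits encoded by the mitochondrial chromosome, whereas every subunit of complex II is nuclear. Core subunits carry out catalysis or bind the redox groups, accessory subunits surround them, and assembly factors help to build the complexes without being part of the catalytic machine.

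Library totals lay between 18757228 and 33148937 estimated counts. TUT4, the first targeted gene, stood at 212, 216 and 206 counts per 1000000 (CPM) in the WT libraries and at 882, 920.4 and 917 CPM in those labelled ΔTUT4/7, which goes against the label. TUT7, the second, stood at 60.4, 62.6 and 64.8 CPM in WT and at 27.2, 25.2 and 26.5 CPM in the other group. A count over a whole gene does not show whether its transcript is intact, so the second group is called the libraries labelled ΔTUT4/7 throughout. All 7 kidney and HEK lineage markers examined passed the count filter, whereas 3 of 10 markers of other cell types did (COL1A1, COL3A1 and GFAP, each lower in the libraries labelled ΔTUT4/7). All 7 lineage markers were called, 3 higher and 4 lower, with log2 fold changes from -1.74 to 1.33. In RNA from whole cultures, fewer cells of a type and less RNA per cell cannot be told apart. WT replicate 3 read higher than the other WT libraries for short transcripts, as given below.

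Most nuclear respiratory chain genes were expressed at moderate to high levels, and the majority of those that differed were higher in the libraries labelled ΔTUT4/7, by modest amounts. Of the 87 members, 85 had a count above 12 in at least 1 library and were tested. COX7A1, the heart and muscle form of a complex IV subunit, and ATP5MGL, a retrocopy of the complex V gene ATP5MG, were not. At a false discovery rate (FDR) under 0.05 by the quasi-likelihood test of edgeR, 47 of the 85 tested members were higher, 9 were lower and 29 were not called. The median log2 fold change over the tested members was 0.21, and single values ran from -0.47 (NDUFA7) to 1.19 (NDUFS6). NDUFS6 was the only member called at 2-fold or more. Below, values written as 0.81 ± 0.05 without a unit are log2 fold changes with their standard error (SE), and each FDR comes from the same edgeR fit.

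These counts need the background of the whole table. Of the 23952 genes tested, 28.6% were called higher and 29.0% lower, and the median log2 fold change was -0.02. Members were called higher in 55.3% of cases and lower in 10.6%. The members are however mostly short, well-counted protein-coding genes, and such genes as a class were called higher more often. Of 11588 protein-coding genes that averaged at least 100 counts, 44.5% were higher and 30.8% lower (median 0.10). Of the 595 among them with a canonical transcript of up to 1000 bases, members included, 51.8% were higher and 13.3% lower (median 0.25). Among the 48 tested members of that length 50% were higher and 10.4% lower, near the shares of this class. The direction of the short members is therefore not a result particular to them. Of the 37 longer members 62.2% were higher and 10.8% lower. No class of longer genes was tallied apart, so no more is read from that share. Called at 2-fold or more were 5.90% of all tested genes in the higher direction and 12.4% in the lower direction, against 1 and 0 members. Among the 595 short genes 35 and 13 were so called, and among the 11588 well-counted genes 640 and 721. The 6 libraries separated the groups without overlap for 46 of the 85 members in the higher direction and 9 in the lower direction. The shares were 30.9% and 31.8% of all tested genes. Among the 595 short genes the counts were 323 and 89, and among the 11588 well-counted genes 5330 and 3724. A lack of overlap is thus common in such genes.

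The complexes differed in their counts. These counts, and those of parts of complexes below, need the same background. It was 44.5% higher and 30.8% lower among well-counted protein-coding genes, and 51.8% and 13.3% among the short ones. All 4 genes of complex II were called higher (median log2 fold change 0.40). In complex V 13 of 18 tested genes were higher and 1 was lower (median 0.43), and in complex III 8 of 13 were higher and 1 was lower (median 0.23, and 0.10 to 0.13 under the scalings to library size alone and upper quartile and an offset for GC content and length). Complex I had 17 of 37 higher (45.9%) and 5 lower (13.5%), near the shares of short, well-counted genes. Its median of 0.16 was 0.056 without WT replicate 2 and 0.013 to 0.062 under those 3 settings. Complex IV had 5 of 13 higher (38.5%) and 2 lower (15.4%), so its share called higher was below both backgrounds. Its median of 0.09 became -0.03 when counts were scaled to library size alone, -0.01 with upper-quartile scaling and -0.03 with the GC and length offset. No test of the differences between complexes was made.

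**Figure D1:**
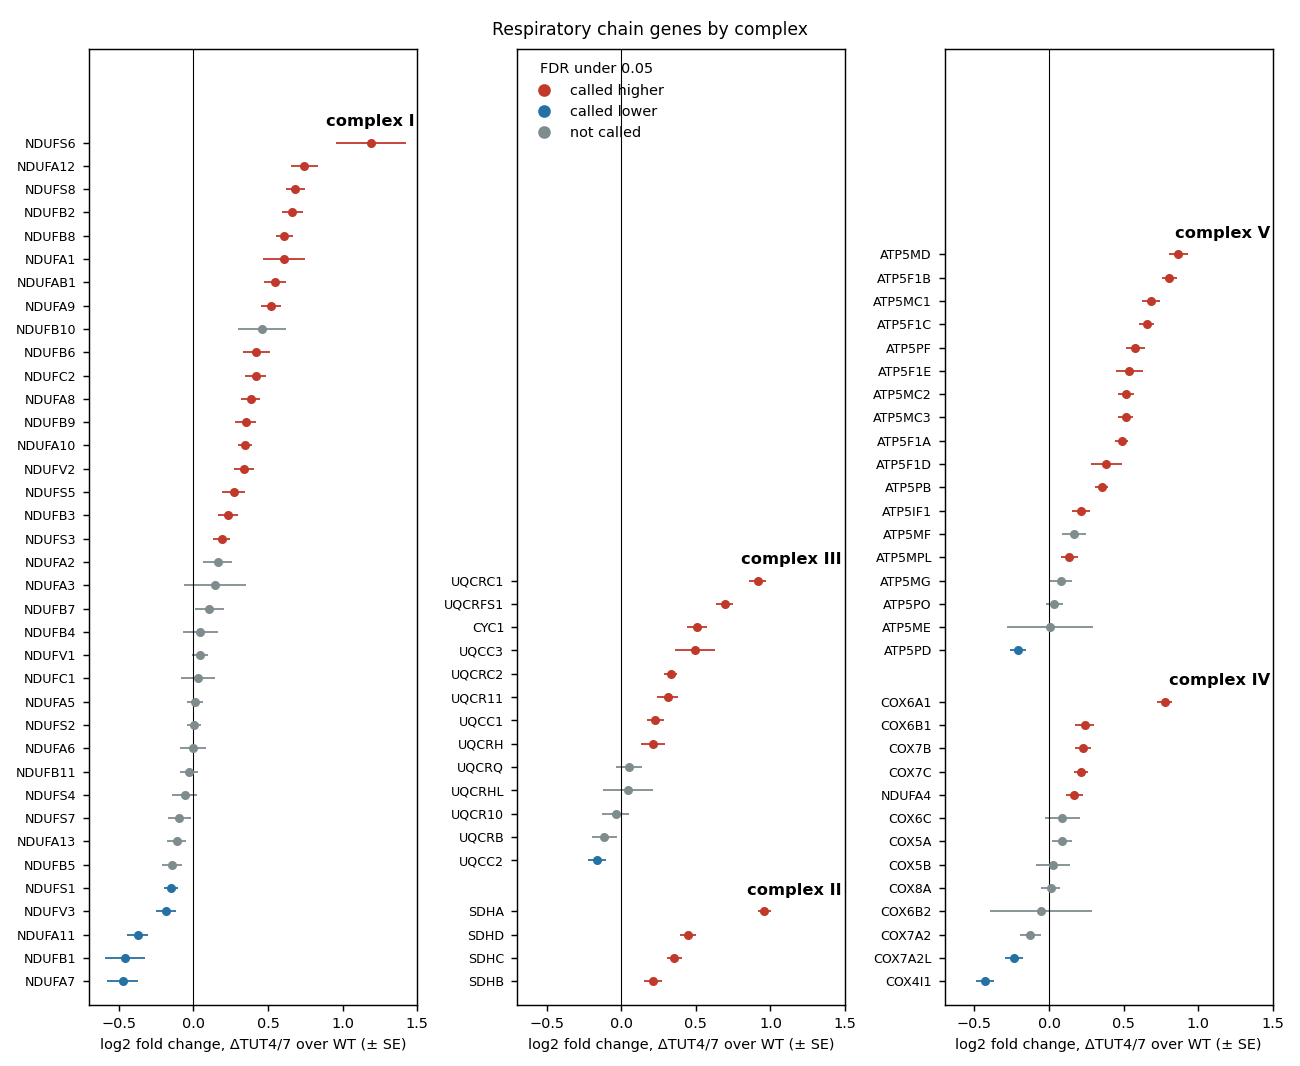
Log2 fold change of each of the 85 tested members, libraries labelled ΔTUT4/7 over WT, by complex. Points are fitted values, bars are standard errors, and colour gives the call at FDR under 0.05. All 4 genes of complex II lie to the right of 0, and complexes I and IV hold 7 of the 9 members called lower.

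Ratios of summed CPM between the groups, taken from the same counts, were largest for complexes II and V. The genes of complex II summed to 347, 358 and 339 CPM in WT and to 527, 533 and 517 CPM in the libraries labelled ΔTUT4/7, a ratio of 1.51. Most of that difference lay in 1 gene, SDHA, with means of 129.8 CPM in WT and 252.0 CPM in the other group. SDHB, SDHC and SDHD had means of 85.1, 69.5 and 63.5 CPM in WT and 98.6, 88.8 and 86.4 CPM in the other group. Complex V summed to 1754 ± 51.8 CPM (SD, n = 3) in WT and to 2513 ± 28.9 CPM in the other group, a ratio of 1.43. The ratio was 1.26 for complex III, 1.12 for complex I and 1.07 for complex IV. For complex IV the sums overlapped, since WT replicate 3 reached 891 CPM, above the 874 and 869 CPM of replicates 1 and 3 labelled ΔTUT4/7. Scaled to library size alone the complex IV ratio was 0.990. Over all members the sum was 5233 ± 89.3 CPM in WT and 6600.3 ± 120 CPM in the libraries labelled ΔTUT4/7.

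Complex II, succinate dehydrogenase, links the TCA cycle to the chain. Its catalytic subunit SDHA, which carries the flavin and oxidises succinate (chr5:218241-257082 of hg38, plus strand), had 128, 127 and 134 CPM in WT and 254, 252 and 249.6 CPM in the libraries labelled ΔTUT4/7. The groups did not overlap, and SDHA was 1.94-fold higher (log2 fold change 0.96 ± 0.04 SE, FDR 6.51e-14 by edgeR). SDHA pseudogenes held 12.8% of the counts assigned to the gene and its copies together.

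SDHD, a membrane anchor that helps to bind ubiquinone, had 64.3, 66.6 and 59.5 CPM in WT and 83.7, 89.6 and 86.0 CPM in the other group, again without overlap (0.45 ± 0.06, FDR 4.46e-07). SDHC, the second anchor, went from 69.5 ± 2.61 CPM to 88.8 ± 1.44 CPM (0.35 ± 0.05, FDR 3.29e-06). SDHB, the iron-sulfur subunit, differed least, with 82.3, 94.1 and 78.9 CPM in WT against 99.4, 102.2 and 94.1 CPM. Its highest WT library lay level with its lowest library labelled ΔTUT4/7 (0.21 ± 0.06, FDR 0.00547). The SDHB call was lost when counts were scaled to library size alone (FDR 0.201), with upper-quartile scaling (FDR 0.130) and with an offset for GC content and length (FDR 0.229).

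Members can be set beside the genes around them on the chromosome, since neighbours of SDHA were also higher. The median log2 fold change of the 31 other expressed genes within 5 Mb of SDHA was 0.90, close to SDHA itself, and NDUFS6 lies in the same stretch of chromosome 5. For SDHD, SDHC and SDHB the neighbours' medians were -0.02, 0.07 and -0.23. The part of chromosomal position in these values was not tested.

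The sequence in front of SDHA is shown because it stood out among the members for repeats of the NRF1 motif. NRF1 is a transcription factor known for activating nuclear genes of respiration, and the motif searched on either strand was GCGC and TGCGC with 1 base of any kind between them. The 250 bases before the RefSeq start of SDHA (chr5:218070-218319 of GRCh38.p14, plus strand) hold 4 matches, in capitals, each read on the minus strand:
SDHA: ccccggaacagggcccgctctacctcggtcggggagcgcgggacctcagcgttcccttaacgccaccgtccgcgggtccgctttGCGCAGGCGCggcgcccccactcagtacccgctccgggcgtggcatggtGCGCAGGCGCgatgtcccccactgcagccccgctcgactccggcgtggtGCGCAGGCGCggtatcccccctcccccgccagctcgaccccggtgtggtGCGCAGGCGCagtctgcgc
The matches begin 166, 117, 68 and 19 bases before the start, 49 bases from one to the next. Of 15842 protein-coding promoters of 300 bases in the same table, 8 held 4 or more matches when a position matched on both strands was counted once, and SDHA was the only member among them. A match of letters is a description and does not show binding.

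Complex V joins a catalytic head (F1) to a membrane rotor. All 8 genes of its catalytic and rotor core were called higher, beside 44.5% of well-counted protein-coding genes. Their median log2 fold change was 0.53. ATP5F1B, the catalytic beta subunit, had the highest level of all members per kilobase of transcript, 264 CPM per kilobase in WT and 462 in the other group. Its CPM were 462, 503 and 429 in WT and 815, 803 and 819 in the libraries labelled ΔTUT4/7. The groups lay far apart (0.81 ± 0.05, FDR 1.73e-11).

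The other 4 F1 genes, which fall outside the naming rule and were chosen after their values were seen, are ATP5F1A, ATP5F1C, ATP5F1D and ATP5F1E, the alpha, gamma, delta and epsilon subunits. Their log2 fold changes were 0.49, 0.65, 0.38 and 0.54, and none of the 4 had overlapping groups. The ATP5F1D call was lost with the offset for GC content and length. Neighbours of ATP5F1C and ATP5F1E had medians of 0.59 and 0.64, whereas those of ATP5F1A and ATP5F1B had -0.08 and 0.21.

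The c subunit, which forms the rotor ring, is made by 3 genes whose mature proteins are the same and whose targeting sequences differ. ATP5MC1 had 28.9, 30.4 and 29.6 CPM in WT and 48.8, 48.1 and 45.8 CPM in the libraries labelled ΔTUT4/7 (0.68 ± 0.06, FDR 4.05e-09). ATP5MC2 had 72.9, 78.8 and 79.0 CPM against 104, 112 and 115 CPM (0.51 ± 0.05, FDR 3.39e-08). ATP5MC3 had 109.8, 123 and 109 CPM against 163, 163 and 161 CPM (0.51 ± 0.05, FDR 1.45e-08). None of the 3 overlapped between groups. Their summed level was 220.3 ± 10.6 CPM in WT and 320.0 ± 3.72 CPM in the libraries labelled ΔTUT4/7, and the share of ATP5MC1 in it was 13.6%, 13.1% and 13.6% in WT and 15.4%, 14.9% and 14.3% in the other group, slightly higher without overlap. The mean shares of ATP5MC2 (34.9% and 34.4%) and ATP5MC3 (51.6% and 50.7%) came from libraries that overlapped between groups. Neighbours of ATP5MC1 and ATP5MC3 had medians of 0.01 and -0.19, whereas neighbours of ATP5MC2 had a median of 0.24. The part of chromosomal position in these values was not tested.

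The stalk and membrane subunits of complex V were mixed, with 4 of 9 higher, 1 lower and a median of 0.14. ATP5MD, a small membrane protein known for holding synthase dimers together, had 35.9, 37.2 and 40.5 CPM in WT and 67.6, 72.9 and 67.5 CPM in the other group (0.87 ± 0.06, FDR 7.51e-11). ATP5PD, the d subunit of the peripheral stalk, was the member of complex V called lower, at 66.6, 63.9 and 65.4 CPM against 57.4, 55.1 and 57.2 CPM (-0.21 ± 0.05, FDR 0.00205). Pseudogenes held 15.8% of the counts of ATP5PD and its copies. ATP5ME, the e subunit, had 8.91, 8.19 and 14.97 CPM in WT and 9.52, 13.3 and 10.1 CPM in the other group. Its groups overlapped fully (0.01 ± 0.29, FDR 0.984), and without WT replicate 3 it passed the threshold as higher (0.34, FDR 0.0474). ATP5IF1, the inhibitor that binds the F1 head at low pH, was called higher (0.21 ± 0.06, FDR 0.00426), a call lost under scaling to library size alone, upper-quartile scaling and the offset for GC content and length.

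Complex III passes electrons from ubiquinol to cytochrome c. Its nuclear core genes are CYC1, which makes cytochrome c1, and UQCRFS1, which makes the Rieske iron-sulfur protein. UQCRFS1 had 52.1, 58.0 and 52.4 CPM in WT and 85.6, 88.4 and 89.1 CPM in the libraries labelled ΔTUT4/7 (0.69 ± 0.06, FDR 5.33e-10), and CYC1 was called higher too (0.51 ± 0.07, FDR 1.2e-06). Neither overlapped between groups.

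UQCRC1, a structural subunit on the matrix side, had the largest change of complex III, with 82.4, 73.3 and 70.3 CPM in WT and 145, 136 and 144 CPM in the other group (0.91 ± 0.06, FDR 1.04e-11). Its neighbours on chromosome 3 had a median of 0.52. UQCC2, an assembly factor needed to make cytochrome b, was the member called lower, at 53.0, 50.1 and 52.2 CPM against 48.5, 44.4 and 45.6 CPM (-0.16 ± 0.06, FDR 0.0222). That call was lost without WT replicate 1 (FDR 0.0571), without replicate 2 labelled ΔTUT4/7 (FDR 0.0815) and without replicate 3 labelled ΔTUT4/7 (FDR 0.0738).

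UQCRH, the hinge protein beside cytochrome c1, had the highest level of complex III per kilobase, 117 CPM per kilobase in WT and 137 in the other group. Its CPM of 57.8, 58.4 and 73.0 in WT overlapped with 75.5, 72.5 and 72.0 (0.21 ± 0.08, FDR 0.0362). The UQCRH call was the least firm among those described. It was lost in each fit that left out WT replicate 1 or 2 or a library labelled ΔTUT4/7, with FDR between 0.0623 and 0.136. UQCRHL is a retrocopy of UQCRH, so the estimated counts of the pair depend on how shared reads were divided. UQCRHL was listed at 13.4, 12.6 and 19.4 CPM against 15.1, 17.8 and 14.4 CPM (0.05 ± 0.17, FDR 0.832), and without WT replicate 3 it passed the threshold as higher (0.27, FDR 0.0468). UQCRB, a small matrix-side subunit, had -0.11 ± 0.08 (FDR 0.272), and was called lower with library size alone (-0.23, FDR 0.0116) and upper-quartile scaling (-0.21, FDR 0.0397).

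Complex I is the entry point for NADH and has the most subunits. Among its 7 nuclear core genes 3 were higher and 1 was lower (median 0.04), and among 30 accessory genes 14 were higher and 4 were lower (median 0.20). NDUFS6, an accessory subunit that binds zinc near the NADH-oxidising end (chr5:1801407-1816048 of hg38, plus strand), had 8.35, 8.11 and 13.9 CPM in WT and 21.7, 26.7 and 21.9 CPM in the libraries labelled ΔTUT4/7. It was 2.28-fold higher without overlap (1.19 ± 0.23, FDR 0.00656). The WT libraries themselves were uneven, with replicate 3 well above the others, and the 37 expressed neighbours had a median of 0.90.

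NDUFA12, an accessory subunit fitted late in assembly, had 13.9, 13.3 and 14.2 CPM in WT and 24.1, 24.5 and 20.6 CPM in the other group (0.74 ± 0.09, FDR 2.89e-07). NDUFS8, a core subunit with iron-sulfur clusters named after its values were seen, went from 26.2 ± 1.59 to 42.0 ± 1.06 CPM (0.68 ± 0.07, FDR 1.35e-08). NDUFV1, the core subunit that binds NADH and flavin, had 97.9 ± 5.23 and 101 ± 3.96 CPM and was not called (0.04 ± 0.05, FDR 0.501). NDUFS1, the largest core subunit, was slightly lower (-0.15 ± 0.05, FDR 0.0099), a call lost without replicate 1 labelled ΔTUT4/7 and with the offset for GC content and length. The core genes of 1 complex thus did not share a direction.

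NDUFA7 had the lowest fold change of all members, with 13.2, 14.1 and 15.2 CPM in WT and 11.1, 10.2 and 9.24 CPM in the libraries labelled ΔTUT4/7 (-0.47 ± 0.10, FDR 0.00052). The gene overlaps RPS28 at chr19:8308768-8321375, and how reads were divided between them is not known. NDUFB1, an accessory subunit of the membrane arm, had 16.5, 16.7 and 23.8 CPM in WT against 13.0, 14.7 and 14.2 CPM (-0.46 ± 0.13, FDR 0.00981). Both were lower without overlap between groups, and their neighbours had medians of 0.01 and -0.01. NDUFA13, the member of complex I with the highest level per kilobase, had 70.6 ± 6.70 and 65.5 ± 2.42 CPM and was not called (FDR 0.143). Scaling to library size alone called it lower (FDR 0.00341), as did leaving out WT replicate 2 (FDR 0.0107). Upper-quartile scaling (FDR 0.00583), a mean count of 50 or more (FDR 0.0177) and the GC and length offset (-0.34, FDR 2.38e-06) also called it lower.

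Complex IV, cytochrome c oxidase, has its catalytic core encoded in mitochondria, so each nuclear gene here is accessory or an assembly factor. COX6A1, the form of subunit 6A found outside heart and muscle, had 73.0, 73.2 and 71.6 CPM in WT and 129, 126 and 118 CPM in the libraries labelled ΔTUT4/7 (0.78 ± 0.05, FDR 1.57e-11). Its neighbours on chromosome 12 had a median of 0.80, and pseudogenes held 18.7% of the counts of COX6A1 and its copies. COX4I1, the subunit that enters complex IV early in assembly, moved the other way, with 130.4, 120.0 and 147 CPM in WT and 98.5, 97.0 and 100.1 CPM in the other group (-0.43 ± 0.06, FDR 1.18e-05). Neither gene overlapped between groups. COX4I1 neighbours on chromosome 16 had a median of -0.30, and the gene overlaps EMC8.

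COX7A2L, a relative of subunit 7A that helps to join complexes III and IV, was 1.18-fold lower (58.4 ± 2.86 and 49.7 ± 3.15 CPM, FDR 0.00218), whereas COX7A2, the general form of subunit 7A, had 65.8, 68.5 and 81.5 CPM against 64.7, 67.5 and 66.3 CPM and was not called (FDR 0.130). COX7A2 was called lower when counts were scaled to library size alone (FDR 0.00318) and without WT replicate 1 (FDR 0.0253). So it was with upper-quartile scaling (FDR 0.00805), at a mean count of 50 or more (FDR 0.0191) and with the GC and length offset (FDR 0.000587). The muscle form COX7A1 was at most 0.460 CPM in any library, and COX6B2, the testis form of subunit 6B, at most 1.17 CPM. Its general counterpart COX6B1 had 39.8 ± 2.67 and 47.1 ± 2.03 CPM (0.24 ± 0.06, FDR 0.00304). COX7C had the highest level of complex IV per kilobase, 203 CPM per kilobase in WT and 235 in the other group, and was called higher (0.22 ± 0.05, FDR 0.000451), as was COX7B (0.23 ± 0.05, FDR 0.00129). The calls of COX6B1, COX7B and COX7C were lost when counts were scaled to library size alone, where their log2 fold changes were 0.13, 0.11 and 0.10. Upper-quartile scaling also lost the calls of COX6B1 and COX7B, and the GC and length offset that of COX6B1. COX8A, a small subunit, had 52.7 ± 4.84 and 53.0 ± 2.46 CPM (0.01 ± 0.07, FDR 0.912), and the offset for GC content and length called it lower (-0.18, FDR 0.00319).

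**Figure D2:**
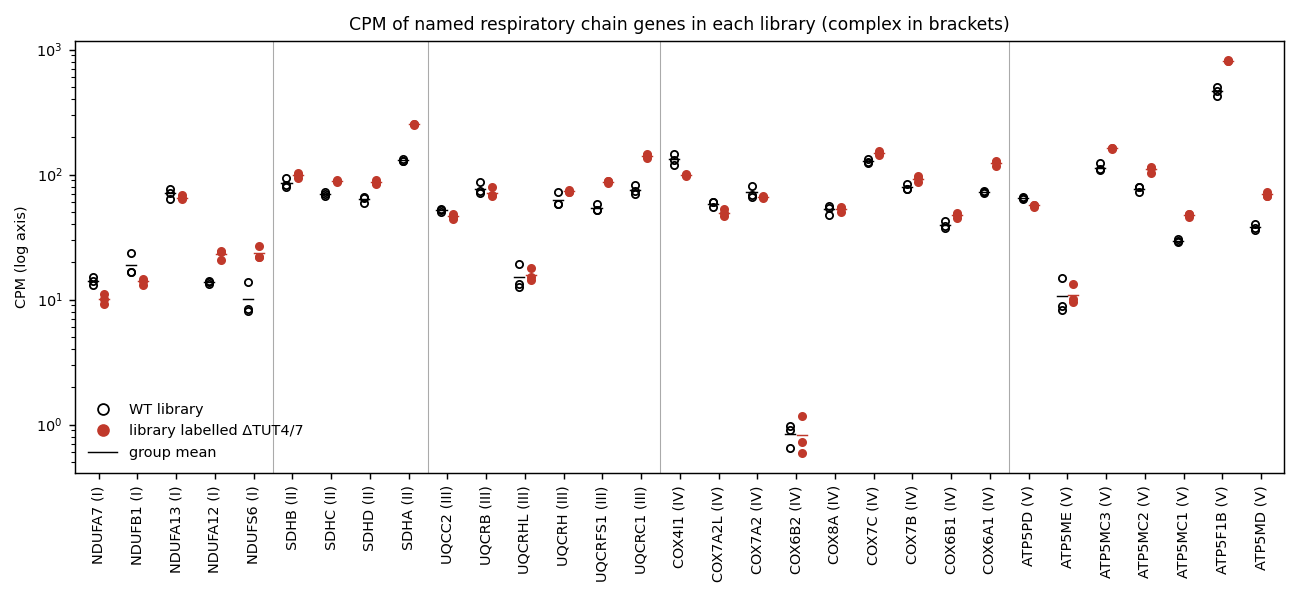
CPM of the tested members chosen by the naming rule, in each of the 6 libraries, on a log axis, with group means as short lines. SDHA, UQCRC1, COX6A1, ATP5F1B and ATP5MD stand clearly higher in the libraries labelled ΔTUT4/7, COX4I1 lies lower, and for NDUFS6, UQCRHL and ATP5ME the highest WT point is replicate 3.

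WT replicate 3 read high for short members. Over the 48 tested members with a transcript of up to 1000 bases, WT replicate 3 lay a median of 0.15 (log2 CPM) above the mean of the other WT libraries and was the highest WT library for 32. Over the 37 longer members the median was 0.02, and it was the highest for 13. The short, well-counted protein-coding genes described above showed 0.09. Without WT replicate 3, 52 members were called higher and 9 lower.

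The plot of members against their neighbours places each gene beside its surroundings. The neighbours' median log2 fold change, taken over expressed genes within 5 Mb, had a median of 0.09 over the members. After it was subtracted, the members' median was 0.11, with 0.36 for complex II, 0.24 for complex V, 0.18 for complex III, 0.09 for complex I and -0.02 for complex IV. SDHA, COX6A1, ATP5F1C and ATP5F1E differed from their neighbours by 0.06, -0.03, 0.06 and -0.10. ATP5F1B, ATP5MC1, ATP5MC3, ATP5F1A and SDHD lay between 0.47 and 0.71 above theirs. Other members of complexes I and V lay in the same range, among them NDUFS8 (0.53) and ATP5MD (0.47).

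**Figure D3:**
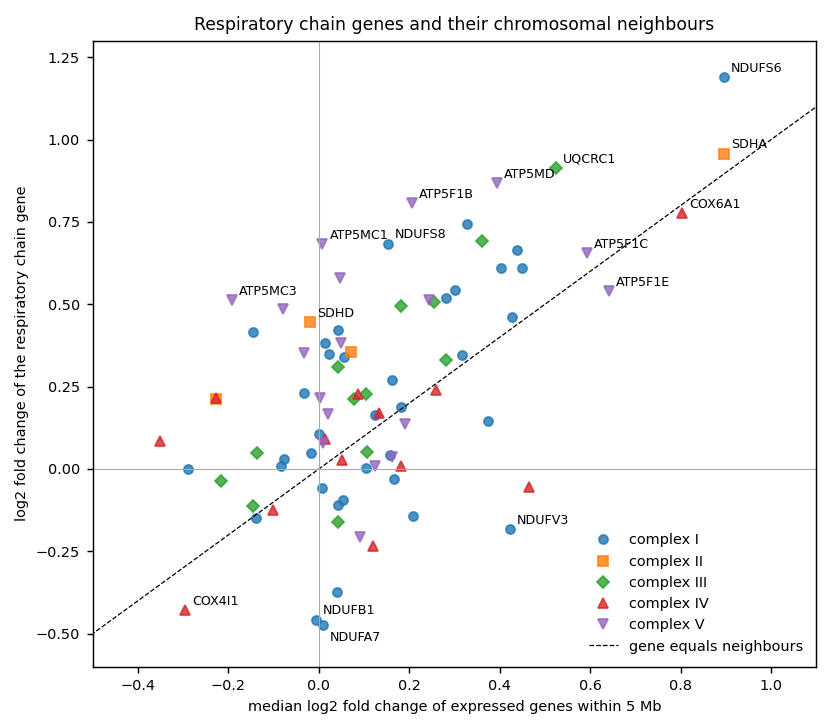
Log2 fold change of each tested member (vertical) against the median of other expressed genes within 5 Mb (horizontal), with symbols by complex and a dashed line where the values are equal. NDUFS6, SDHA and COX6A1 sit at the right with neighbours of 0.80 to 0.90, and ATP5F1B, ATP5MC1 and ATP5MC3 lie well above the line.

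Nuclear respiration genes are known for promoters with sites for NRF1, for GABPA, an ETS factor, and for YY1. RefSeq promoters (GRCh38.p14, 250 bases before to 50 bases after the start) were matched for 69 of the 87 members and searched on both strands. The NRF1 motif given above was in 18 of them (26.1%) and in 8.57% of 15842 protein-coding promoters. CCGGAAG, as bound by GABPA, was in 20 (29.0%) against 14.2%. AANATGGCG, as bound by YY1, was in 18 (26.1%) against 4.81%. At least 1 of these motifs was in 60.9% of the members' promoters and in 24.2% of all. TATAAA, the core promoter motif, was in 8.70% against 9.63%. In no member did matches of different motifs overlap.

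Motif content was spread over called and uncalled members. The YY1 motif was in 11 of 37 members called higher, 3 of 9 called lower and 4 of 23 not called. The NRF1 motif was in 11, 2 and 5, and the GABPA motif in 10, 3 and 7 of the same members. Promoters of complex III held the NRF1 motif in 6 of 9 cases, whereas those of complex IV held it in 0 of 11. A YY1 match began within the 50 bases after the start in 16 of the 18 members with a match and in 489 of the 762 promoters with one overall. The letters of this motif include ATG, the codon where translation starts, and overlap with start codons was not examined.

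The YY1 matches of 7 members chosen by the naming rule are shown because the same letters stood in genes called in opposite directions. The other members with a match fall outside that rule and are not printed. They are ATP5PF, NDUFA9, NDUFS3, NDUFS8, NDUFV2 and UQCC1 (called higher), NDUFS1 (called lower), and NDUFA6, NDUFS4, NDUFS7 and UQCR10 (not called). Capitals mark the match, with 10 bases on each side, 5′ to 3′ along the gene. The positions are chr5:1801405-1801433 (plus strand) for NDUFS6, chr3:48609605-48609633 (minus) for UQCRC1, chr12:120438114-120438142 (plus) for COX6A1, chr19:29213104-29213132 (minus) for UQCRFS1, chr1:17054004-17054032 (minus) for SDHB, chr6:33711671-33711699 (minus) for UQCC2 and chr19:8321343-8321371 (minus) for NDUFA7. In UQCRFS1 the motif lies on the other strand:
NDUFS6: ccagcggcgcAAAATGGCGgcggcgatga
UQCRC1: ctgcagctggAAGATGGCGgcgtccgtgg
COX6A1: gtccagatcaAAAATGGCGgtagttggtg
UQCRFS1: gagcggctgtCGCCATGTTgtcggtagca
SDHB: gtcaggagccAAGATGGCGgcggtggtcg
UQCC2: cgcggggcccAAGATGGCGgccagccggt
NDUFA7: tcgcggacggAAGATGGCGtccgccaccc
The first 5 genes were called higher and the last 2 lower. These matches began between 9 and 30 bases after the start.

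Genes that build and serve the chain were read from the same fit, beside 44.5% higher and 30.8% lower among all well-counted protein-coding genes. Of 57 assembly factors 33 were higher (57.9%) and 11 lower (19.3%), with a median of 0.21. For complex I assembly 13 of 19 were higher and 1 was lower (median 0.28). NDUFAF4, an assembly factor of complex I, was 2.07-fold higher (22.9 ± 1.03 and 47.4 ± 4.25 CPM, FDR 5.96e-11). AIFM1, which helps to import such factors, was also called higher (0.91 ± 0.05, FDR 1.03e-12). For complex II assembly 1 of 4 was higher and 1 lower. SDHAF4, which helps SDHA to join SDHB, was 3.10-fold lower, with 2.60, 3.69 and 4.21 CPM in WT and 1.19, 1.08 and 1.12 CPM in the libraries labelled ΔTUT4/7 (FDR 2.42e-06). SDHAF4 thus moved opposite to SDHA. SDHAF2, which helps to attach the flavin of SDHA, was called higher (0.26 ± 0.09, FDR 0.0222), a call lost under 8 of the alternative settings.

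For complex III assembly 2 of 3 were higher and 1 lower. BCS1L, which inserts the Rieske protein, was called higher (0.42 ± 0.07, FDR 1.19e-05), and LYRM7, the chaperone of the same protein, was called lower (-0.33 ± 0.05, FDR 1.21e-05). For complex IV assembly 15 of 26 were higher and 7 lower, with the smallest p in COA7, an assembly factor of the intermembrane space (0.69 ± 0.05, FDR 3.16e-10), and HIGD1A, a hypoxia-induced membrane protein (0.59 ± 0.05, FDR 9.25e-10). For complex V assembly 2 of 5 were higher and 1 was lower. TMEM70 and TMEM242, which act together on the c subunit ring, were called in opposite directions (0.62 ± 0.08, FDR 6.97e-07, and -0.70 ± 0.07, FDR 1.62e-08). SCO2, a copper chaperone of complex IV named after its values were seen, had 0.102, 0 and 0.130 CPM in WT against 1.37, 1.70 and 2.20 CPM. The gene overlaps TYMP and NCAPH2, and so few counts make its fold uncertain.

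Mobile carriers and regulators completed the lists. Of 15 genes for cytochrome c and coenzyme Q, 7 were higher (46.7%) and 3 lower (20%), with CYCS, cytochrome c itself, at 176 ± 2.31 and 256 ± 18.8 CPM (0.54 ± 0.05, FDR 5.74e-09) and PDSS1, which makes the coenzyme Q side chain, called higher (0.85 ± 0.07, FDR 6.43e-10). Of 15 known regulators of respiratory genes 10 were higher (66.7%) and 3 lower (20%), with a median of 0.35. PPRC1 and PPARGC1B, coactivators of the PGC-1 family, were both called higher (1.25 ± 0.05, FDR 4.54e-15, and 1.13 ± 0.05, FDR 4.89e-14). Of 14 TCA cycle enzymes 7 were higher (50%) and 5 lower (35.7%), shares near those of well-counted protein-coding genes. IDH2, the NADP-linked isocitrate dehydrogenase of mitochondria, and SUCLG2, a subunit of the GTP-forming succinyl-CoA synthetase, were 3.18-fold and 2.53-fold lower (FDR 2.73e-14 and 5.44e-13), and the neighbours of SUCLG2 on chromosome 3 had a median of -1.53.

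The 13 subunits encoded by the mitochondrial chromosome did not share the direction of most nuclear ones. By edgeR 0 were called higher, 0 were higher at an unadjusted p under 0.05, and 2 were called lower, with a median of -0.17. The other 11 were not called. The share called lower was 15.4%, near the 13.3% of short, well-counted protein-coding genes and beside 30.8% of all well-counted ones. The median transcript of these 13 genes was 784 bases long. Of the short, well-counted genes 51.8% were called higher. DESeq2 and both limma fits also called 0 higher and called 4 to 5 lower. MT-CYB, cytochrome b, had 1916, 2086 and 2513 CPM in WT and 1322, 1367 and 1338 CPM in the libraries labelled ΔTUT4/7 (-0.69 ± 0.10, FDR 0.00082). MT-CO1, the catalytic subunit of complex IV, was called lower (-0.49 ± 0.06, FDR 4.36e-06). Calls in this group depended on the libraries, since without WT replicate 3 there were 3 higher and 4 lower. The difference between nuclear and mitochondrial genes was not tested.

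**Figure D4:**
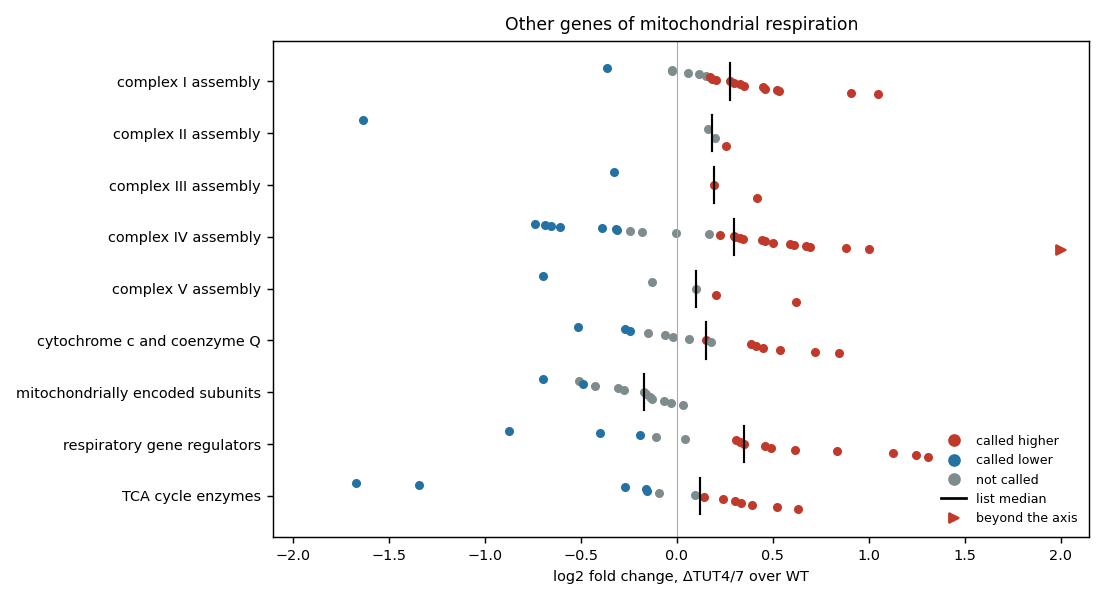
Log2 fold change of genes in 9 lists that serve the respiratory chain, each point 1 gene, coloured by call, with a vertical bar at the list median; SCO2 (4.38) lies beyond the axis. The mitochondrially encoded subunits lie mostly left of 0, and SDHAF4, IDH2 and SUCLG2 are the points furthest to the left.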

How the data were processed

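Per the labels and the study's methods, the authors mapped read pairs with STAR 2.7.3a (hg38) and deposited estimated counts per Ensembl gene from Partek Flow 10.0.22. Between 45.2% and 50.0% of values in a library were not whole. How strand was treated is not given in the sources used here. The authors also deposited their own comparison (p-values, FDR, a ratio, a fold change and least-squares means), which was not used. Here counts were rounded, genes with a largest count above 12 were kept (23952 of 30270), scaled with TMM and compared by the robust quasi-likelihood test of edgeR 4.0.16 in R 4.3.3 on group alone, adjusted by Benjamini-Hochberg across every tested gene. CPM are relative to TMM-scaled library sizes, as mean ± SD over 3 libraries. Levels per kilobase used GENCODE canonical transcripts, and overlong ones understate a level. In tests on simulated data with 22952 genes, 99% of 2-fold changes and 79% of log2 changes of 0.5 were recovered. Only 100 genes of each size were changed there, drawn from genes that averaged at least 100 counts. Far more genes were called in the data, and changes in genes of lower counts were not simulated. Replicates of 1 line measure the spread between cultures of that line. The members and lists were chosen with earlier results of these data known. Genes were named by rule. In each complex these were the 2 largest and 2 smallest log2 fold changes at a mean count of 100 or more, with the highest level per kilobase. Any member called at 2-fold, paralog pairs, TUT4 and TUT7, and the 2 smallest p-values of each other list were added. CYC1, NDUFV1, NDUFS1 and ATP5IF1 were named outside this rule, as were NDUFS8, SCO2, ATP5F1A, ATP5F1C, ATP5F1D and ATP5F1E. Alternatives covered scaling, filters, DESeq2 1.42.0, limma 3.58.1, a replicate block, each library left out, a GC and length offset, pseudogenes and neighbours.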

Additional observations from a re-analysis of the deposited data

How the results depend on the processing

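Of the 56 members called, 33 stayed higher and 6 stayed lower in all 18 refits, and no member was called the opposite way in any. Scaling to library size alone and upper-quartile scaling moved the median of all tested genes by -0.11 and -0.10. Under them 35 and 36 members were higher and 14 and 14 lower, so 71.4% and 72.0% of calls were higher against 83.9%. The offset for GC content and length gave 37 higher and 15 lower (71.2%). The members' median was 0.10, 0.11 and 0.10 under these 3 settings, and 0.11 after neighbours were subtracted. The members' median minus that of all tested genes was 0.23 as reported, 0.15 at a mean count of 50 or more, 0.19 with the GC and length offset and 0.28 without WT replicate 3. What these shifts come from was not tested.

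In the same order (library size alone, upper quartile, GC and length offset) the median was 0.049, 0.062 and 0.013 for complex I, 0.28, 0.30 and 0.31 for complex II, 0.11, 0.13 and 0.10 for complex III, -0.028, -0.014 and -0.030 for complex IV, and 0.32, 0.33 and 0.34 for complex V. Kept to a mean count of 50 or more, the medians of complexes II, III and V were 0.34, 0.16 and 0.37, and with no count filter that of complex V was 0.38. With neighbours subtracted the medians of complexes IV and V were -0.024 and 0.24. With the inhibitor ATP5IF1 left out, the median of complex V was 0.49. Summed CPM ratios under library size alone were 1.04, 1.39, 1.16, 0.990 and 1.32 for complexes I to V.

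Leaving out each library in turn gave 44 to 52 members higher and 7 to 10 lower, with medians of 0.056 to 0.22 for complex I, 0.22 to 0.30 for complex III, 0.00 to 0.14 for complex IV and 0.39 to 0.48 for complex V. Genes near 0 changed sign: ATP5ME ran from -0.17 to 0.34, COX6B2 from -0.37 to 0.18, COX8A from -0.068 to 0.059 and UQCRHL from -0.081 to 0.27. With library size alone, upper-quartile scaling, a mean count of 50 or more, and the GC and length offset, ATP5ME was -0.10, -0.092, -0.054 and -0.12, COX8A -0.10, -0.091, -0.054 and -0.18, and UQCRHL -0.066, -0.053, -0.016 and -0.034. With neighbours subtracted, COX6B1 was -0.019, COX6A1 -0.027 and SUCLG2 0.19, all turned in sign, and TUT4 and TUT7 were 1.89 and -1.45.

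Replicate numbers did not pair the libraries, since same-numbered WT and ΔTUT4/7 libraries correlated at 0.05, -0.01 and -0.02 in their deviations from group means. With the replicate block 47 members were higher and 9 lower. Summing pseudogene counts, the second form of it chosen after seeing the data, also gave 47 and 9. DESeq2 gave 47 and 8. With 3 libraries per group and 1 knockout line, a difference between lines and the deletion itself cannot be told apart.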
